A study of Mus musculus with 12 samples.

Results

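Glycolysis genes and other targets of hypoxia-inducible factor (HIF) were read in 12 RNA-seq libraries of mouse cells. The 38 genes were taken by symbol from a fixed list, out of 53647 genes counted, and split by role. A glycolysis group of 24 held 4 transporters, 17 enzymes and 3 regulators, and 14 further genes were HIF targets outside glycolysis. The libraries fall into 6 groups of 2, one of preparation 1 and the other of preparation 2. The mRNA groups, in cells labelled wild type, are uniSTING mRNA and Mock mRNA (EGFP mRNA) under the label DC2.4, a mouse dendritic cell line, and the same pair under the label 4T1, a mouse mammary carcinoma line. uniSTING is an engineered mimic of STING, the adaptor that leads from cytosolic DNA sensing to type I interferon. The vesicle groups are DC2.4 cells given EXOuniSTING or EXOmock for 24 h, vesicles from 4T1 cells that had received uniSTING or Mock mRNA. The labels name a transfection reagent and lipid nanoparticles for the mRNA without tying either to a library, and give no time for the mRNA groups.

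In glycolysis, glucose enters through GLUT transporters, is phosphorylated by hexokinase, and is split and oxidised to pyruvate, which lactate dehydrogenase turns to lactate for export with protons through MCT transporters. HIF is a dimer of an oxygen-labile alpha subunit and ARNT. Prolyl hydroxylases mark the alpha subunit for the ubiquitin ligase subunit VHL when oxygen is present. Stabilised HIF binds ACGTG and GCGTG cores and raises most glycolytic enzymes together with genes of pH control, mitophagy, angiogenesis and collagen hydroxylation. Activated dendritic cells are known to switch towards glycolysis, and carcinoma cells often run it in the presence of oxygen.

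Markers went against the labels of the mRNA-treated libraries. The counts of 10 epithelial markers together came to 5298 ± 1.21 CPM in uniSTING and 5120 ± 37.6 CPM in Mock libraries labelled DC2.4 (SD, n = 2 each), where CPM is the count scaled to a common library total. It was 5.45 and 0.962 CPM in uniSTING and 4.81 and 0.238 CPM in Mock libraries labelled 4T1, preparation 1 given before preparation 2 here and throughout. Vesicle-treated libraries held 5.96 and 0.424 CPM with EXOuniSTING and 5.12 and 0.107 CPM with EXOmock. Over 10 leukocyte markers the sums were 35.3 ± 2.58 and 35.7 ± 3.36 CPM labelled DC2.4, 3878 ± 25.2 and 4360 ± 26.3 CPM labelled 4T1, and 3869 ± 0.911 and 3741 ± 41.1 CPM with vesicles, in the same order of groups. Itgam, which encodes the myeloid integrin CD11b, had 0 counts in the 4 mRNA libraries labelled DC2.4, and Epcam 0 in 4 of the other 8. Libraries are therefore called by their labels, and a direction holds for the libraries so labelled. The part of the marker levels in the results below was not tested. Totals were 14.1 to 26.0 M counts, so that a floor of 3 counts stood at 0.115 to 0.213 CPM. In 13 genes all 6 preparation 1 libraries had 20 counts or more and all of preparation 2 had 0, and the reverse held for 0 genes. Whether the preparations were separate cultures is not given in the labels. The p-values thus reflect no more than how far the 2 libraries within a group differed, and that difference may be technical. In bulk RNA, fewer cells of a type and less RNA per cell cannot be told apart.

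Promoter windows are shown for members picked by rule. They are the 4 with the smallest adjusted p among those higher under the DC2.4 label and holding a HIF core, and Adm, the largest fall under the 4T1 label. That each of the 4 has a match thus follows from the choice. Each runs from 250 bases before to 50 after the RefSeq start on GRCm38.p6, 5′ to 3′ on the gene's strand. Capitals mark ACGTG or GCGTG on either strand, which read CACGT or CACGC when on the other strand; adjoining matches overlap in CACGTG. Where a gene had several windows, the one with most matches is shown.
Ldha: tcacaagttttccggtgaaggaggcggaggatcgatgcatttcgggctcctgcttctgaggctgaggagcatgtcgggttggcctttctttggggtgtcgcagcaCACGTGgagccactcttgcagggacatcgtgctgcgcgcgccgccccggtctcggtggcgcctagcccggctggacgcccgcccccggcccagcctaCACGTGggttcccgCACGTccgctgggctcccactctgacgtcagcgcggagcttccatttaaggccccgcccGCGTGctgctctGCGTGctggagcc
Pgk1: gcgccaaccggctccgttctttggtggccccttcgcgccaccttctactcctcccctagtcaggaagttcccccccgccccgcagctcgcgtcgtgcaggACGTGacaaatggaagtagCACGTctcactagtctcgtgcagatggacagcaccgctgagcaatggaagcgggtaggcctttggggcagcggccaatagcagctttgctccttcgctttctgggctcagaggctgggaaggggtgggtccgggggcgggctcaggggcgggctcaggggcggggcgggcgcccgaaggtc
Aldoa: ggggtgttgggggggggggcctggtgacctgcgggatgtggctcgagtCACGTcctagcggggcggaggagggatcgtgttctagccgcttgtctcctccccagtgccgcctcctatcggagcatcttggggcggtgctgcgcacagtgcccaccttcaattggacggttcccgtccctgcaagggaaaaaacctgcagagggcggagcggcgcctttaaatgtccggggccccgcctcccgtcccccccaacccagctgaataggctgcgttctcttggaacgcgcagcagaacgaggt
Bnip3: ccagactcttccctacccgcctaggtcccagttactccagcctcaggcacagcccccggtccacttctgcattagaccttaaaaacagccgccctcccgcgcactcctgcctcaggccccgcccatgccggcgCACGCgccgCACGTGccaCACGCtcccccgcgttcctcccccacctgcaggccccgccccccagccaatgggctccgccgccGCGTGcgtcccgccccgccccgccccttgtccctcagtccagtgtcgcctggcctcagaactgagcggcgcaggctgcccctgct
Adm: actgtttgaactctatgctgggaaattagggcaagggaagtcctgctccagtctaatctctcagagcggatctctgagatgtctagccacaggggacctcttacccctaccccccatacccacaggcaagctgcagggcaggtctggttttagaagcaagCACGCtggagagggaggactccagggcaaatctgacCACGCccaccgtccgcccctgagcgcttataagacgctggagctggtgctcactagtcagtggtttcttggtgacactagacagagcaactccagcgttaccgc
The Ldha window lies at chr7:46845554-46845853 on the plus strand and held 7 matches, of which 4 form the palindromes that start 145 and 48 bases before the start site. The Pgk1 window, chrX:106186850-106187149 on the plus strand, held 2. The Aldoa window, chr7:126799129-126799428 on the minus strand, held 1. The Bnip3 window, chr7:138909457-138909756 on the minus strand, held 5, and the Adm window, chr7:110627407-110627706 on the plus strand, held 2. Of 35 members in the table, 31 (88.6%) had a match in at least 1 window, against 66.9% of 10377 tested genes and 46.7% of all 27025 genes with a window. The share was 20 of 23 in the glycolysis group and 11 of 12 among the other HIF targets. Ndrg1, Bnip3l and Slc2a3 had no entry in the table, and Tpi1, Eno2, Gpi1 and Car12 had windows with no match. These letters describe the windows only, and binding was not measured.

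The glycolysis group as a whole took 1.60% of all counts in uniSTING and 1.26% in Mock libraries labelled DC2.4. The shares were 1.75 and 1.76% in uniSTING and 1.49 and 1.51% in Mock libraries labelled 4T1, and their means were 1.01% with EXOuniSTING and 0.986% with EXOmock. Each treated mean thus lay above its control, by the least with vesicles. The 14 other HIF targets summed to 1768 ± 11.7 CPM in uniSTING and 1108 ± 2.59 CPM in Mock libraries labelled DC2.4 (SD, n = 2 each). With vesicles the sums were 730 ± 5.63 CPM for EXOuniSTING and 702 ± 8.82 CPM for EXOmock. Under the 4T1 label they were 795 ± 5.87 CPM with uniSTING and 791 ± 0.202 CPM with Mock mRNA, a difference smaller than the spread, and with TMM-scaled totals the uniSTING sum was the lower, at 767 against 778 CPM. Per kb of exonic length, Ldha led with uniSTING under the DC2.4 label at 859 and 864 CPM per kb and Pkm in its Mock libraries at 665 and 661 CPM per kb. Aldoa led in the other 4 groups, at 932 and 944 CPM per kb with uniSTING and 871 and 889 CPM per kb with Mock mRNA labelled 4T1. Slc2a3, which encodes GLUT3, had 0 to 6 counts per library and was not tested, which leaves 37 members.

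uniSTING mRNA under the DC2.4 label was the comparison in which the members moved most, and nearly all called members moved upwards. Of the 37 tested, 27 were higher and 2 lower at an adjusted p below 0.05 (edgeR quasi-likelihood F test, Benjamini-Hochberg over 14863 genes), against 20.8% of all tested genes higher and 20.9% lower. At least 2-fold changes were 8 higher and 0 lower, against 2.19% and 1.46% of all genes. The glycolysis group had 15 higher and 2 lower of 23, with a median log2 fold change of 0.48. The other HIF targets had 12 higher and 0 lower of 14, with a median of 0.83, and the median over all genes was 0.00. Fold changes here and below are on edgeR's scale, with trimmed-mean (TMM) factors, while levels are CPM of deposited totals.

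**Figure D1:**
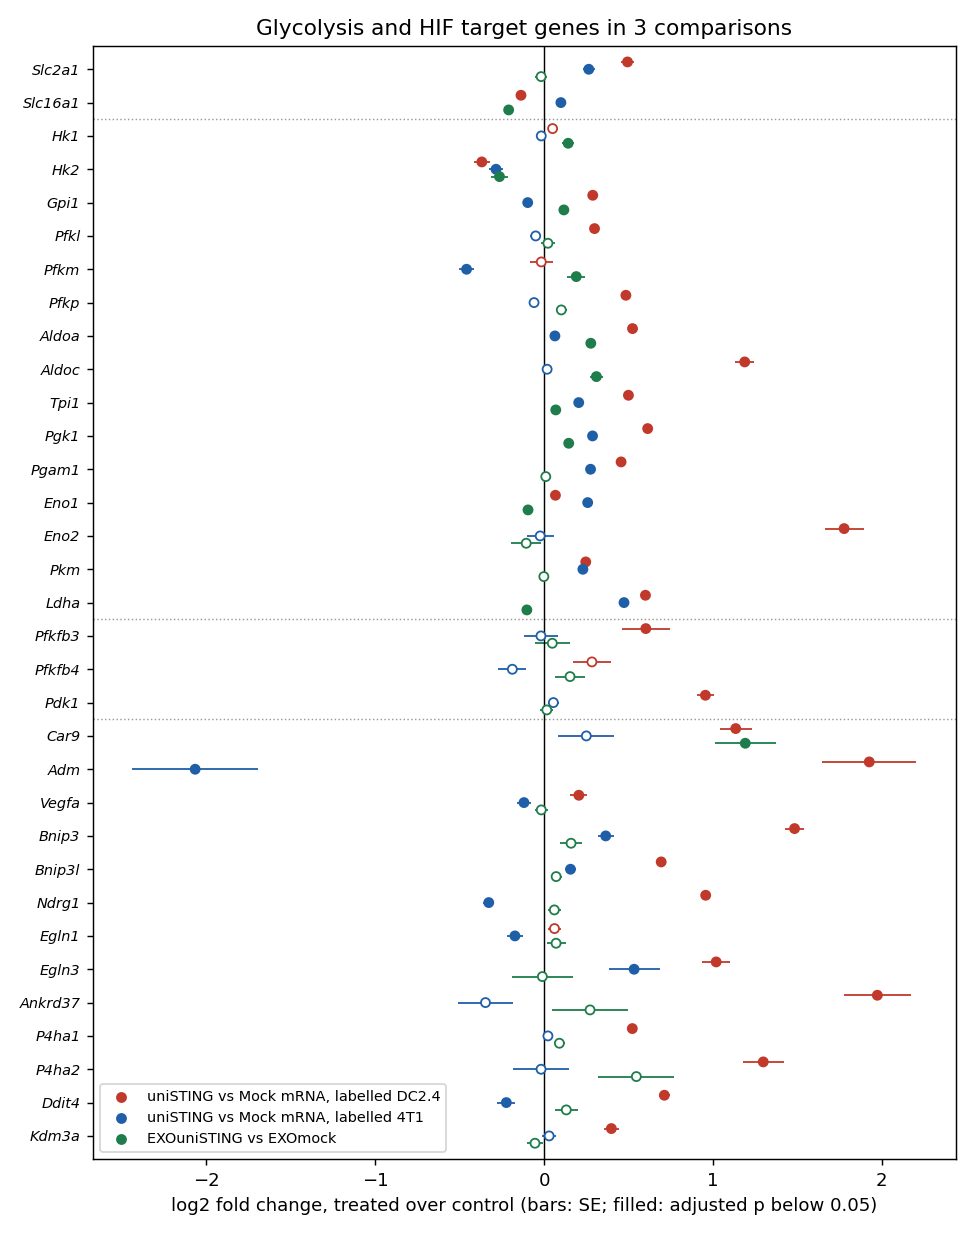
log2 fold change with its standard error (bars) of 33 members in 3 comparisons, ordered from transporters through enzymes and regulators to other HIF targets; filled points had an adjusted p below 0.05. The red points of uniSTING mRNA labelled DC2.4 lie to the right for most members, with Ankrd37 at 1.97 and Adm at 1.93, while Hk2 lies to the left in all 3 comparisons. Slc2a3, Slc16a3, Gapdh, Ldhb, Car12 and the vesicle value of Adm are not drawn.

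Of the 17 glycolytic enzymes, 12 were called higher and 1 lower under the DC2.4 label, and Ldha, Pgk1, Aldoa, Tpi1 and Pgam1 had the smallest adjusted p among them. Ldha, the muscle-type lactate dehydrogenase (ENSMUSG00000063229, GRCm39 chr7:46490899-46505051), stood at 2844 and 2861 CPM in uniSTING and 1916 and 1897 CPM in Mock libraries, a log2 fold change of 0.60 ± 0.01 (SE, adjusted p = 2.06e-12). Pgk1, phosphoglycerate kinase (ENSMUSG00000062070, GRCm39 chrX:105230706-105247305), stood at 1715 and 1736 CPM with uniSTING and 1149 and 1137 CPM with Mock mRNA (0.61 ± 0.02, adjusted p = 3.53e-12). Aldoa, the main aldolase (ENSMUSG00000030695), had 1842 and 1834 CPM in uniSTING and 1289 and 1302 CPM in Mock libraries (0.52 ± 0.02, adjusted p = 3.56e-11). In these 3 genes the uniSTING mean was 1.42 to 1.51 times the Mock mean in CPM, a gap far wider than that within groups. Tpi1, triose phosphate isomerase, had 931 and 938 CPM with uniSTING and 669 and 670 CPM with Mock mRNA (0.50 ± 0.02). Pgam1, phosphoglycerate mutase, had 938 and 948 CPM with uniSTING and 692 and 702 CPM with Mock mRNA (0.46 ± 0.02). Both passed the test with no overlap of groups, at adjusted p = 1.67e-10 for Tpi1 and 4.31e-10 for Pgam1. With 2 libraries a group, absence of overlap adds little to a call, here and below. It also held in members not called, such as Car12 under this label (adjusted p = 0.547). The share of all tested genes without overlap is not given here.

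The rarer enolase and aldolase isozymes had larger log2 fold changes than their abundant partners; that difference was not tested. Eno2, the neuronal-type enolase, stood at 8.49 and 9.25 CPM in uniSTING and 2.51 and 2.72 CPM in Mock libraries labelled DC2.4 (log2 fold change 1.78 ± 0.11, SE, adjusted p = 2.55e-08). Aldoc, the brain-type aldolase, stood at 43.4 and 45.3 CPM with uniSTING and 20.3 and 19.3 CPM with Mock mRNA (1.19 ± 0.06, adjusted p = 8.51e-10). Their abundant partners, Eno1 and Aldoa, changed by 0.07 and 0.52. Per length, Aldoa still made up 97.8 to 97.9% of the Aldoa and Aldoc sum with uniSTING and 98.6 to 98.7% with Mock mRNA. The Eno1 call was lost, at a log2 fold change of 0.03 and adjusted p = 0.0607, when counts of its 4 near-identical copies were added. With uniSTING under this label the copies had 20416 and 27264 counts, beside 37363 and 49296 for Eno1. With Mock mRNA they had 19649 and 24864, beside 33439 and 42087. Over all libraries the copies held 17.1% of the joint counts, a smaller share than under this label. Eno1 is therefore uncertain here. The other called members of the glycolysis group rose by 0.25 (Pkm, pyruvate kinase) to 0.96 (Pdk1, the kinase that shuts pyruvate dehydrogenase). Between them lay Gpi1, glucose phosphate isomerase, at 0.29, and the phosphofructokinases Pfkl at 0.30 and Pfkp at 0.48. Slc2a1, which encodes GLUT1, rose by 0.49 and Pfkfb3, which makes the phosphofructokinase activator fructose 2,6-bisphosphate, by 0.60. The Pfkfb3 call was lost without Mock replicate 2, at 0.40 (adjusted p = 0.0761).

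The 2 members that fell under the DC2.4 label sit at the entry and the exit of the pathway. Hk2, the inducible hexokinase (ENSMUSG00000000628, GRCm39 chr6:82702006-82751435), stood at 53.8 and 56.9 CPM with uniSTING and 69.4 and 75.3 CPM with Mock mRNA (log2 fold change -0.37 ± 0.05, SE, adjusted p = 1.57e-05). Slc16a1, which encodes the lactate transporter MCT1, stood at 264 and 261 CPM with uniSTING and 295 and 290 CPM with Mock mRNA (-0.14 ± 0.02, adjusted p = 0.000359). Both changes were under 2-fold with no overlap of groups. Hk1, the constitutive hexokinase, was not called at 0.05 ± 0.03, nor was Pfkm, the muscle phosphofructokinase, at -0.02 ± 0.07. Ldhb, the heart-type lactate dehydrogenase, had 189 and 224 counts with uniSTING and 97 and 127 with Mock mRNA, a log2 fold change of 0.76 ± 0.34 that missed the threshold (adjusted p = 0.0928). Pfkfb4, the testis-type partner of Pfkfb3, stood at 0.28 ± 0.11 (adjusted p = 0.0614). Slc16a3, the HIF-responsive lactate exporter gene for MCT4, had 11 and 1 counts with uniSTING and 2 and 4 with Mock mRNA and was close to the floor.

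Among HIF targets outside glycolysis, 6 rose at least 2-fold under the DC2.4 label. Bnip3, a receptor that marks mitochondria for removal (ENSMUSG00000078566, GRCm39 chr7:138492565-138511248), stood at 116 and 108 CPM in uniSTING and 42.9 and 38.6 CPM in Mock libraries (log2 fold change 1.48 ± 0.06, SE, adjusted p = 1.00e-10). Ankrd37, an ankyrin repeat gene, stood at 6.90 and 6.98 CPM with uniSTING and 2.23 and 1.41 CPM with Mock mRNA (1.97 ± 0.20, adjusted p = 2.18e-06). Adm, which encodes the vasodilator peptide adrenomedullin (ENSMUSG00000030790, GRCm39 chr7:110226868-110229027), stood at 7.16 and 9.73 CPM with uniSTING and 2.69 and 1.86 CPM with Mock mRNA (1.93 ± 0.28, adjusted p = 6.51e-05). The lower uniSTING library stood at 2.52 times (Bnip3), 3.10 times (Ankrd37) and 2.67 times (Adm) the CPM of the higher Mock library. Car9, the cell-surface carbonic anhydrase of pH control, had 29.2 and 29.9 CPM with uniSTING and 12.8 and 14.4 CPM with Mock mRNA (1.13 ± 0.10). P4ha2, a catalytic subunit of collagen prolyl hydroxylase, had 360 and 485 counts with uniSTING and 140 and 173 counts with Mock mRNA (1.30 ± 0.12). Egln3, the HIF prolyl hydroxylase PHD3, itself a HIF target, had 68.8 and 74.3 CPM with uniSTING and 37.4 and 34.3 CPM with Mock mRNA (1.02 ± 0.08). Adjusted p was 3.32e-07 for Car9, 1.09e-06 for P4ha2 and 2.01e-07 for Egln3, and no groups overlapped.

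Other HIF targets changed by less than 2-fold but with small errors. Ndrg1, a stress-responsive gene linked to differentiation, stood at 414 and 418 CPM in uniSTING and 219 and 215 CPM in Mock libraries labelled DC2.4 (log2 fold change 0.96 ± 0.03, SE, adjusted p = 1.90e-11). Bnip3l, the mitophagy receptor NIX, stood at 232 and 234 CPM with uniSTING and 146 CPM in both Mock libraries (0.69 ± 0.03, adjusted p = 2.89e-10). A processed copy of Bnip3l held 21.9% of their joint counts, and with the copy added the log2 fold change was 0.70. Ddit4, the mTORC1 inhibitor REDD1, rose by 0.71, P4ha1 by 0.52, the histone demethylase gene Kdm3a by 0.40 and Vegfa, the angiogenic growth factor gene, by 0.21. The Vegfa call was lost without uniSTING replicate 1 (0.15, adjusted p = 0.0506). Egln1, the main HIF hydroxylase PHD2, at 0.06 ± 0.04, and Car12, a second cell-surface carbonic anhydrase, at 0.08 ± 0.10, were not called. Bnip3 and Ankrd37 share 22.3% and 22.7% of their exonic length with genes on the opposite strand, and Car9 9.29%, whose reads cannot be told apart in counts made without strand.

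Shorter genes were higher and longer genes lower under the DC2.4 label. Across the 14863 genes Spearman's rho of log2 fold change and exonic length was -0.30, a description across genes that are not independent, and the medians were 0.24 in the shortest decile and -0.22 in the longest. Tested members had a median exonic length of 4.13 kb, against 3.92 kb for all tested genes. With the length trend removed, the medians were 0.41 for the glycolysis group and 0.79 for the other HIF targets.

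**Figure D2:**
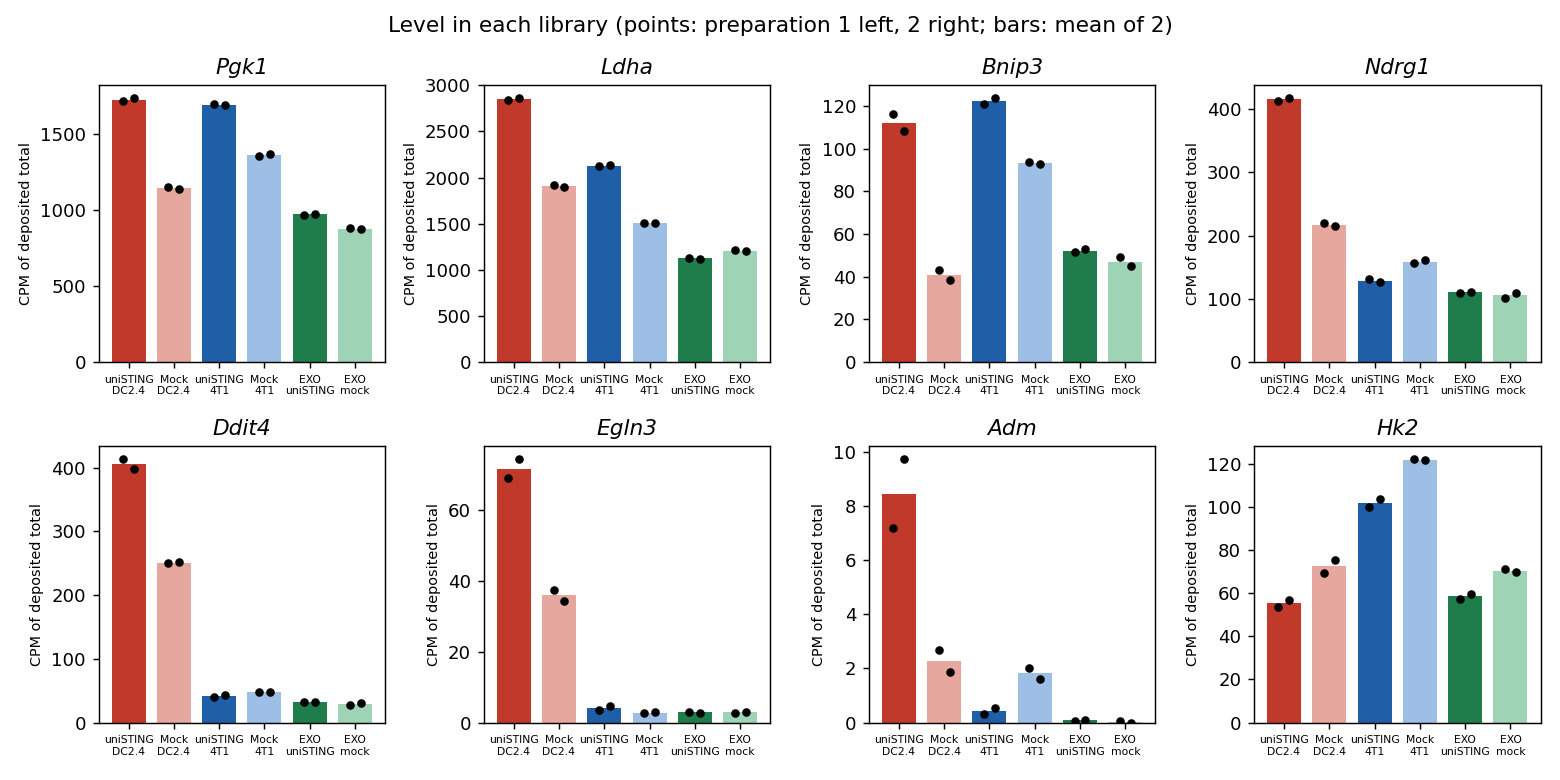
CPM of deposited totals (vertical axes, linear from 0) of 8 members in each library; bars are means of 2 libraries and points are the libraries. Under the DC2.4 label, Pgk1, Ldha, Bnip3, Ndrg1, Ddit4, Egln3 and Adm stood higher with uniSTING than with Mock mRNA, Ndrg1, Ddit4 and Adm stood lower under the 4T1 label, and Hk2 stood lower in the treated group of each pair.

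With uniSTING mRNA under the 4T1 label, 7 of 17 glycolytic enzymes were called higher and 3 lower, and the 3 tested transporters were called higher, all by less than 2-fold. The other HIF targets were called in both directions. Of 37 members, 13 were higher and 8 lower, against 12.6% of all tested genes higher and 15.7% lower. Without Mock replicate 2, 5 members were lower, Vegfa, Egln1 and Ddit4 being lost. At least 2-fold changes were 0 higher and 1 lower, against 1.11% and 0.700% of all genes. The glycolysis group had 10 higher and 3 lower of 23 (median 0.06), and the other HIF targets 3 higher and 5 lower of 14 (median 0.00). Without Ldhb and Car12, whose mean counts were at or under 3 in both groups, the medians were 0.06 and -0.02. The median over all genes was -0.01.

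Ldha had the largest log2 fold change among the called enzymes of the 4T1-labelled libraries, with 2120 and 2139 CPM in uniSTING and 1506 and 1505 CPM in Mock libraries (log2 fold change 0.47 ± 0.01, SE, adjusted p = 3.08e-10). Pgk1 stood at 1695 and 1690 CPM with uniSTING and 1357 and 1365 CPM with Mock mRNA (0.29 ± 0.02, adjusted p = 2.34e-08). Eno1, which had few copy reads under this label, stood at 2567 and 2587 CPM with uniSTING and 2114 and 2115 CPM with Mock mRNA (0.26 ± 0.01, adjusted p = 2.97e-08). The uniSTING mean was 1.41 times the Mock mean in CPM for Ldha, 1.24 times for Pgk1 and 1.22 times for Eno1, with replicates close together. Pkm stood at 2888 and 2919 CPM with uniSTING and 2439 and 2420 CPM with Mock mRNA (0.23 ± 0.01). It shares 15.3% of its exonic length with another gene on the same strand. Pgam1 stood at 1477 and 1493 CPM with uniSTING and 1200 and 1208 CPM with Mock mRNA (0.28 ± 0.02). Tpi1 stood at 745 and 739 CPM with uniSTING and 633 and 630 CPM with Mock mRNA (0.21 ± 0.02). All 3 were higher without overlap, at adjusted p = 2.73e-08 for Pkm, 2.68e-07 for Pgam1 and 4.68e-06 for Tpi1.

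The 3 tested transporters were all called higher under the 4T1 label. Slc16a3 stood at 275 and 278 CPM with uniSTING and 205 and 210 CPM with Mock mRNA (log2 fold change 0.39 ± 0.04, SE, adjusted p = 1.22e-05). Slc2a1 stood at 149 and 156 CPM with uniSTING and 126 and 124 CPM with Mock mRNA (0.26 ± 0.03, adjusted p = 5.92e-05). Slc16a1 stood at 246 and 244 CPM with uniSTING and 224 and 225 CPM with Mock mRNA (0.10 ± 0.02, adjusted p = 0.00746). In each of these genes both uniSTING libraries lay above both Mock libraries. Aldoa stood at 2713 and 2749 CPM with uniSTING and 2537 and 2589 CPM with Mock mRNA. Its log2 fold change was only 0.06 ± 0.02 (adjusted p = 0.0125). The Aldoa call was lost with the length trend removed (0.04, adjusted p = 0.0952). It was also lost without Mock replicate 1 (0.04) and without uniSTING replicate 2 (0.05). Bnip3 at 0.36, Bnip3l at 0.16 and Egln3 at 0.53 were the HIF targets called higher. The Egln3 call rested on 72 and 121 counts with uniSTING and 50 and 73 with Mock mRNA, and was lost without uniSTING replicate 2 (0.33, adjusted p = 0.304) and without either Mock replicate (0.0796 and 0.0778).

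Among the 8 lower members of the 4T1-labelled libraries, Adm fell furthest. It had 6 and 14 counts with uniSTING and 36 and 41 counts with Mock mRNA (log2 fold change -2.07 ± 0.37, SE, adjusted p = 0.000887), 0.305 and 0.539 CPM against 2.01 and 1.63 CPM. Pfkm stood at 70.2 and 65.2 CPM with uniSTING and 91.6 and 90.6 CPM with Mock mRNA (-0.46 ± 0.04, adjusted p = 4.54e-06), and shares 10.2% of its exonic length with another gene on the same strand. Ndrg1 stood at 131 and 127 CPM with uniSTING and 156 and 161 CPM with Mock mRNA (-0.33 ± 0.03, adjusted p = 6.88e-06). Adm and Ndrg1, both raised under the DC2.4 label, thus moved in the other direction here. Hk2 stood at 100 and 104 CPM with uniSTING and 122 and 121 CPM with Mock mRNA (-0.28 ± 0.04, adjusted p = 0.000103). Gpi1 stood at 1246 and 1225 CPM with uniSTING and 1301 and 1291 CPM with Mock mRNA (-0.10 ± 0.02, adjusted p = 0.000545). Ddit4 stood at 40.9 and 43.3 CPM with uniSTING and 48.7 and 48.1 CPM with Mock mRNA (-0.22 ± 0.05, adjusted p = 0.0067). The Ddit4 call was lost without uniSTING replicate 1 (adjusted p = 0.0666) and without Mock replicate 2 (0.0528). Egln1 stood at 69.1 and 68.3 CPM with uniSTING and 74.1 and 77.4 CPM with Mock mRNA (-0.17 ± 0.05, adjusted p = 0.0123), and Vegfa at 76.5 and 72.8 CPM with uniSTING and 78.0 and 80.5 CPM with Mock mRNA (-0.12 ± 0.04, adjusted p = 0.0461). Both were lost without Mock replicate 2 (adjusted p = 0.148 for Egln1 and 0.311 for Vegfa) and without uniSTING replicate 2 (0.0687 and 0.293), and Vegfa also without uniSTING replicate 1 (0.0565). The other 16 tested members were not called, Ankrd37 at -0.35 ± 0.16 and Car9 at 0.25 ± 0.17 among them.

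EXOuniSTING vesicles came with the fewest called members of the 3 comparisons, 12 of them in the glycolysis group and 1 among the other HIF targets. Of 37 members, 8 were higher and 5 lower, against 7.96% of all tested genes higher and 8.14% lower. At least 2-fold changes were 1 higher and 0 lower, against 0.632% and 0.565% of all genes. The glycolysis group had 7 higher and 5 lower of 23 (median 0.02) and the other HIF targets 1 higher and 0 lower of 14 (median 0.11, and 0.08 without Car12 and Adm, whose mean counts were at or under 3 in both groups). Leaving out EXOmock replicate 1 left 5 higher members. The median over all genes was 0.00.

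Aldoa changed with the smallest adjusted p, at 1622 and 1645 CPM with EXOuniSTING and 1352 and 1345 CPM with EXOmock (log2 fold change 0.28 ± 0.02, SE, adjusted p = 3.23e-07). Aldoc stood at 101 and 97.6 CPM with EXOuniSTING and 77.2 and 82.1 CPM with EXOmock (0.31 ± 0.04, adjusted p = 0.000147). Pgk1 stood at 968 and 972 CPM with EXOuniSTING and 882 and 872 CPM with EXOmock (0.15 ± 0.02, adjusted p = 4.00e-05). Both aldolases rose by similar amounts, and Aldoa still held over 94.7% of their per-length sum in each vesicle library. Gpi1 stood at 882 and 884 CPM with EXOuniSTING and 823 and 805 CPM with EXOmock (0.12 ± 0.02, adjusted p = 0.000397). Hk1 stood at 120 and 118 CPM with EXOuniSTING and 106 and 109 CPM with EXOmock (0.14 ± 0.03, adjusted p = 0.0119), and Pfkm at 51.4 and 49.1 CPM with EXOuniSTING and 44.7 and 43.3 CPM with EXOmock (0.19 ± 0.05, adjusted p = 0.0284). Tpi1 stood at 305 and 316 CPM with EXOuniSTING and 300 and 293 CPM with EXOmock, only 0.07 ± 0.02 (adjusted p = 0.0466). Its call was lost without EXOuniSTING replicate 2 (log2 fold change 0.04), without EXOmock replicate 1 (0.08) and without EXOmock replicate 2 (0.05). It was also lost with the length trend removed (adjusted p = 0.102), with no filter (0.105) and with only the libraries compared (0.103). With preparation as a replicate block the adjusted p was 0.0514. The Hk1 call was lost without EXOmock replicate 1 and without EXOuniSTING replicate 1, at a log2 fold change of 0.13 in both. The Pfkm call was lost without any 1 of the 4 libraries, at 0.16 to 0.22. Car9 was the HIF target called higher, with 40 and 64 counts with EXOuniSTING and 18 and 23 with EXOmock (1.19 ± 0.18, adjusted p = 0.000578).

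The 5 lower members with vesicles included both lactate transporters and lactate dehydrogenase. Slc16a1 stood at 183 and 178 CPM with EXOuniSTING and 211 and 207 CPM with EXOmock (log2 fold change -0.21 ± 0.03, SE, adjusted p = 0.000134). Slc16a3 stood at 182 CPM in both EXOuniSTING libraries and 211 and 219 CPM with EXOmock (-0.24 ± 0.05, adjusted p = 0.00285). Ldha stood at 1130 and 1117 CPM with EXOuniSTING and 1211 and 1201 CPM with EXOmock (-0.10 ± 0.01, adjusted p = 0.000319). In these 3 genes both EXOuniSTING libraries thus lay below both EXOmock libraries. Eno1 stood at 1599 and 1616 CPM with EXOuniSTING and 1727 and 1708 CPM with EXOmock (-0.10 ± 0.01, adjusted p = 0.000595). Hk2 stood at 57.5 and 59.5 CPM with EXOuniSTING and 71.3 and 69.6 CPM with EXOmock (-0.26 ± 0.05, adjusted p = 0.00231). The remaining 24 tested members were not called, Pgam1 at 0.01 ± 0.02, Bnip3 at 0.16 ± 0.06 and P4ha2 at 0.55 ± 0.22 among them, the last on 23 and 32 counts with EXOuniSTING and 16 and 18 with EXOmock.

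Across the 3 comparisons, which share no library, Aldoa, Pgk1 and Tpi1 were called higher in all 3 and Hk2 lower in all 3. The Aldoa call under the 4T1 label and the Tpi1 call with vesicles were lost in some settings, as given above. Ldha and Eno1 were called higher in both mRNA comparisons and lower with vesicles. Eno1 is uncertain under the DC2.4 label, where its call was lost with its copies added. Slc16a1 was lower under the DC2.4 label and with vesicles but higher under the 4T1 label. Adm, Ddit4, Ndrg1, Vegfa and Gpi1 were called higher under the DC2.4 label and lower under the 4T1 label. Of these, the Ddit4 call under the 4T1 label and the Vegfa calls under both labels were lost without single libraries. A further 9 members were called in the DC2.4-labelled mRNA comparison and in neither of the others: Ankrd37, Eno2, Kdm3a, P4ha1, P4ha2, Pdk1, Pfkfb3, Pfkl and Pfkp. Whether these 9 differ between comparisons is a question for the test of the difference itself. The share of all tested genes with each of these patterns is not given here, so the counts describe the members only.

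That test, the uniSTING response under the DC2.4 label minus the response under the 4T1 label, called 28 members higher and 2 lower of 37, against 16.0% and 15.1% of all tested genes. At least 2-fold differences were 7 higher and 0 lower, against 2.51% and 1.90% of all genes. The median difference was 0.33 in the glycolysis group and 0.71 among the other HIF targets. Adm differed most, by 3.99 ± 0.46 on the log2 scale (SE, adjusted p = 1.56e-05), followed by Ankrd37 at 2.32 ± 0.26 and Eno2 at 1.80 ± 0.14. Ndrg1 had the smallest adjusted p, with a difference of 1.28 ± 0.04 (9.10e-11). The 9 members called in the DC2.4-labelled comparison alone were all called here too. They were picked by calls in the same libraries, so a difference partly follows from that choice. Pfkfb3 was no longer called without uniSTING replicate 1 (0.41) or Mock replicate 2 (0.42) labelled DC2.4. Eno1 (-0.19) and Slc16a1 (-0.24) were the 2 with the smaller response under the DC2.4 label. Hk2 (-0.08 ± 0.06, adjusted p = 0.334) and Pkm (0.02 ± 0.02, adjusted p = 0.527) were not called different. Cell type, experiment and label go together in this contrast and cannot be told apart.

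**Figure D3:**
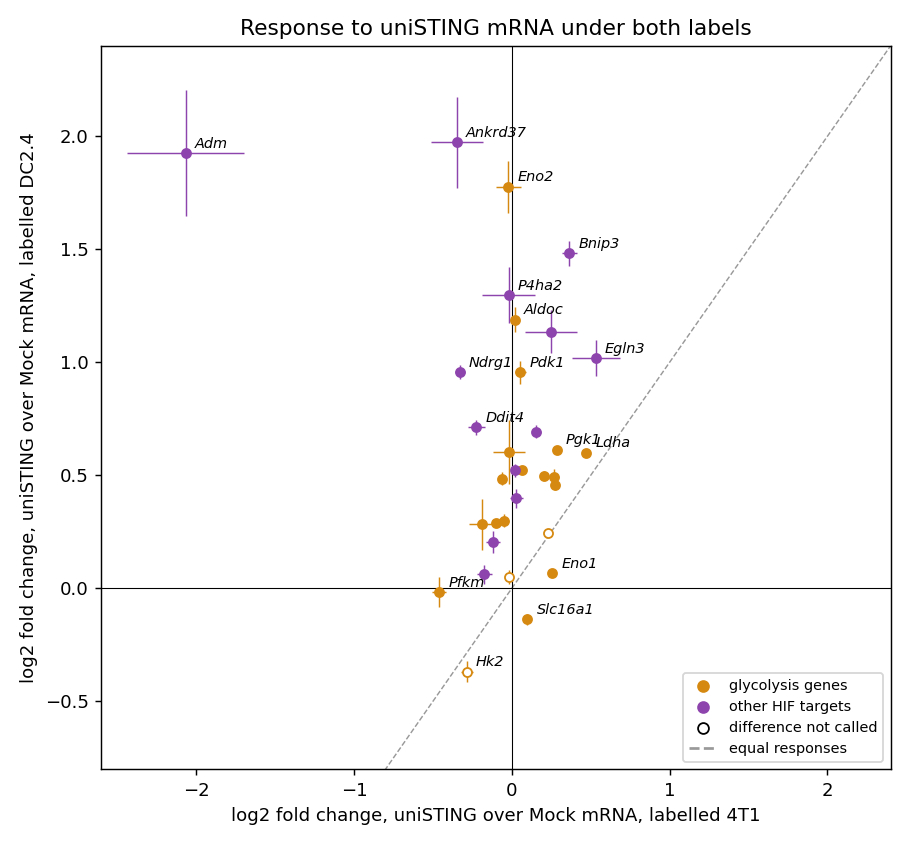
log2 fold change of 33 members under uniSTING over Mock mRNA in libraries labelled 4T1 (horizontal) and DC2.4 (vertical), with standard errors (bars); open points had no called difference and the dashed line marks equal responses. Most points lie above the line; Adm is at upper left with 1.93 and -2.07, and Eno1 and Slc16a1 lie below it.

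The mRNA response under the 4T1 label and the vesicle response were compared in the same way, since both sets of libraries held leukocyte markers. Of 37 members, 9 were higher and 10 lower in the mRNA response, against 13.0% and 15.0% of all tested genes. Ldha differed with the smallest adjusted p, by 0.58 ± 0.02 (SE, 8.79e-10), and the 3 transporters by 0.28 (Slc2a1), 0.31 (Slc16a1) and 0.63 (Slc16a3). Eno1, Pgk1, Pkm, Pgam1 and Tpi1 made up the other 5 with the larger mRNA response. Pfkm, at -0.65 ± 0.07, differed furthest in the other direction among the enzymes, and Aldoa (-0.21), Aldoc (-0.29), Gpi1 (-0.21) and Hk1 (-0.16) did so too. Pfkp was also called in that direction, and its call was lost with the DESeq2 Wald test (-0.18, adjusted p = 0.0628). Ndrg1, Ddit4, Egln1 and Car9 were the HIF targets with the smaller mRNA response; the Egln1, Hk1 and Car9 calls were lost without single libraries, at adjusted p up to 0.146, 0.0816 and 0.109. Treatment and delivery differ between these responses and cannot be told apart, and the time of the mRNA groups is not given.

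Isozyme use differed between the labels before any effect of uniSTING. Mock libraries labelled DC2.4 against those labelled 4T1 had 14 members higher and 21 lower of 37, against 42.4% and 40.5% of all tested genes, and at least 2-fold 7 higher and 11 lower, against 22.1% and 23.7%. Slc16a3 had 2 and 4 counts under the DC2.4 label and 3668 and 5286 under the 4T1 label. Car12 had 981 and 1348 counts under the DC2.4 label and 0 in both Mock libraries labelled 4T1, and Ldhb had 97 and 127 counts under the DC2.4 label and 2 and 0 under the 4T1 label. Slc16a3, Car12 and Ldhb were thus at or near the floor under one label and counted well above it under the other, while per length Slc16a1 and Ldha held the larger share of their pairs under both. Per length, Pfkl made up 81.4 and 81.8% of the phosphofructokinase sum in Mock libraries labelled DC2.4 and 42.5 and 43.7% in those labelled 4T1, where Pfkm held 41.9 and 40.9%. Egln3, at 37.4 and 34.3 CPM under the DC2.4 label and 2.80 and 2.90 CPM under the 4T1 label, and Ddit4, at 250 and 251 CPM against 48.7 and 48.1 CPM, stood higher under the DC2.4 label. Aldoc, at 20.3 and 19.3 CPM under the DC2.4 label and 190 and 186 CPM under the 4T1 label, stood lower.

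Shares within pairs of paralogues, per length, differed between some treated and control groups; they are given as values without a test. Hk1 made up 67.0% of the hexokinase 1 and 2 sum in both uniSTING libraries labelled DC2.4, against 61.4 and 59.3% with Mock mRNA. The share was 59.7 and 59.4% with uniSTING and 55.3 and 54.8% with Mock mRNA labelled 4T1, and 59.3 and 58.0% with EXOuniSTING and 51.0 and 52.2% with EXOmock. In each pair of groups the treated libraries thus held a larger Hk1 share with no overlap. Egln1 made up 57.7 and 56.8% of the Egln1 and Egln3 sum with uniSTING labelled DC2.4, against 71.1 and 73.3% with Mock mRNA. Bnip3 made up 46.0 and 44.0% of the Bnip3 and Bnip3l sum with uniSTING labelled DC2.4, against 33.3 and 31.0% with Mock mRNA. With vesicles the Bnip3 shares overlapped, at 38.3 and 40.1% with EXOuniSTING and 39.2 and 36.8% with EXOmock.

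**Figure D4:**
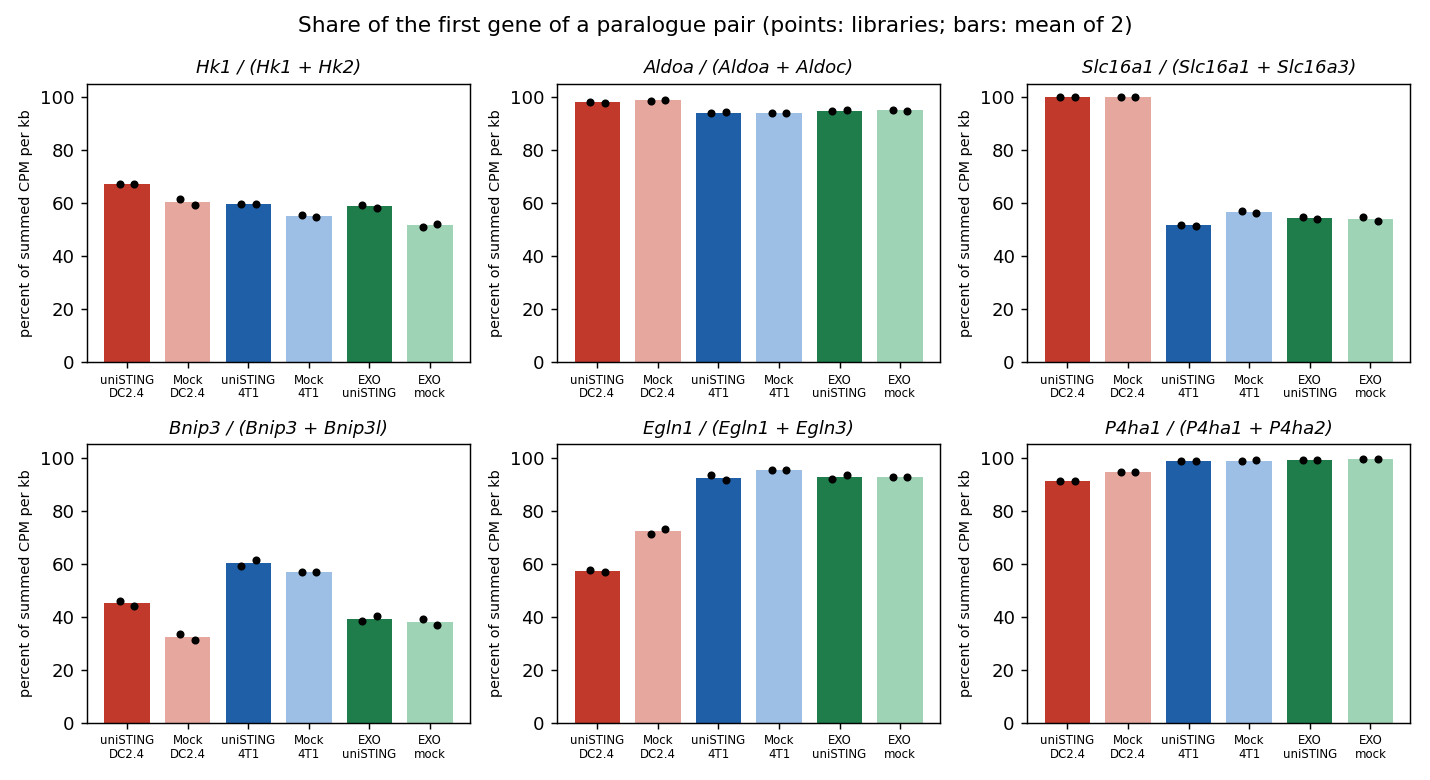
Percent of the summed CPM per kb of 2 paralogues that belonged to the named first gene, in each library (points) with the mean of 2 (bars), for 6 pairs. The Hk1 share stood higher in the treated group of each pair, and the Egln1 share was lowest with uniSTING mRNA labelled DC2.4, at 57.7 and 56.8%.

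Gapdh, glyceraldehyde phosphate dehydrogenase, is uncertain in all comparisons, because only uniquely mapped reads were counted and it has 127 near-identical copies. It had 160 to 5150 counts per library, and one copy, Gm13394, had 19626 to 28026 counts in the 4 mRNA libraries labelled DC2.4 and 70 to 211 in the other 8. The Mock libraries labelled 4T1 had 335 and 4350 Gapdh counts, against 3791 and 5150 in uniSTING libraries. No direction is given for it, and without Gapdh the glycolysis group took 1.60% of counts in uniSTING and 1.25% in Mock libraries labelled DC2.4.

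**Figure D5:**
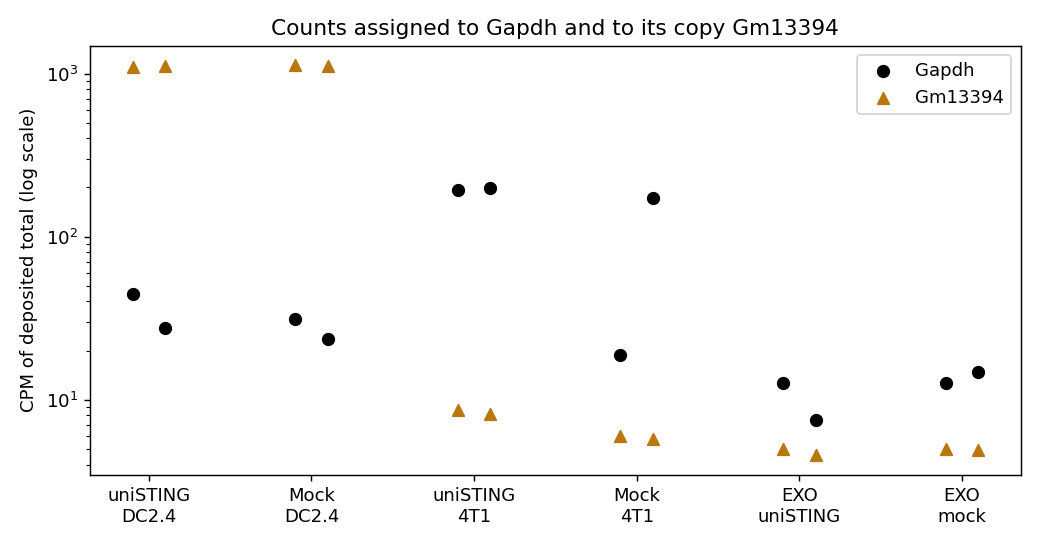
CPM of deposited totals (log axis) assigned to Gapdh (circles) and to its near-identical copy Gm13394 (triangles) in each of the 12 libraries. Gm13394 stood above Gapdh in the 4 mRNA libraries labelled DC2.4 and below it in the other 8, and the Mock libraries labelled 4T1 differed in Gapdh at 18.7 and 173 CPM.

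In the oxygen-sensing machinery itself, 1 of 9 tested genes was called higher and 5 lower under the DC2.4 label, against 20.8% and 20.9% of all tested genes. Hif1a, the main oxygen-labile subunit, stood at 180 and 178 CPM with uniSTING and 198 and 192 CPM with Mock mRNA (log2 fold change -0.10, adjusted p = 0.0103). Hif1an, which encodes the asparagine hydroxylase FIH, fell by 0.54 on the log2 scale, Egln2, the hydroxylase PHD1, by 0.17, the HIF-binding coactivator inhibitor gene Cited2 by 0.16 and the coactivator gene Ep300 by 0.65. Vhl was higher by 0.24 (adjusted p = 0.0219), and Arnt, at 0.04, was not called. Hif1a mRNA was thus slightly lower where most of the listed HIF targets were higher. Protein was not measured, and whether these genes depended on Hif1a here was not tested. Longer genes were lower in general under this label. Hif1a (5896 exonic bases), Hif1an (6606) and Ep300 (14273) are longer than the median tested gene of 3.92 kb. Egln2 (2800) and Cited2 (2457) are shorter, and the part of length in these changes was not tested. Epas1, which encodes HIF-2 alpha, had 36 and 0 counts with uniSTING and 29 and 0 with Mock mRNA, all in preparation 1. Under the 4T1 label, against 12.6% higher and 15.7% lower of all tested genes, 1 gene was higher (Ep300, 0.16) and 4 lower: Arnt at -0.14, Egln2 at -0.21, Hif1an at -0.30 and Cited2 at -0.24, with Hif1a not called at 0.04. With vesicles, against 7.96% and 8.14% of all tested genes, Cited2 was higher (0.18) and Ep300 lower (-0.13).

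Neighbouring pathways were counted in the same way. Under the DC2.4 label, 5 of 13 other isoforms of the pathway were higher and 1 lower, as were 5 and 1 of 12 genes of pyruvate entry into mitochondria, 5 and 1 of 8 of the pentose phosphate pathway, 0 and 2 of 2 of gluconeogenesis, 3 and 1 of 8 of glycogen metabolism, and 16 and 4 of 29 further hypoxia-responsive genes. All tested genes gave 20.8% higher and 20.9% lower. Of the further hypoxia-responsive genes, Higd1a, a mitochondrial hypoxia gene, stood at 61.1 and 64.3 CPM with uniSTING and 30.5 and 29.0 CPM with Mock mRNA (log2 fold change 1.10, adjusted p = 1.72e-09). Stc1, the secreted glycoprotein stanniocalcin, had 146 and 199 counts with uniSTING and 52 and 59 with Mock mRNA (1.49, adjusted p = 0.00285), and Nos2, the inducible nitric oxide synthase gene, 44 and 41 with uniSTING and 5 and 13 with Mock mRNA (2.09, adjusted p = 0.000172). Ppp1r3b and Ppp1r3c, glycogen-targeting subunits of protein phosphatase 1, were also past 2-fold but near the floor, with 5 and 12 against 0 and 0 counts for Ppp1r3b and 0 and 0 against 3 and 1 for Ppp1r3c. Under the 4T1 label the same lists, in that order, had 4 and 1, 2 and 4, 3 and 1, 0 and 0, 1 and 4, and 9 and 8 genes higher and lower, against 12.6% and 15.7% of all tested genes. Ppp1r3c passed 2-fold there, with 9 and 11 counts with uniSTING and 30 and 37 with Mock mRNA. With vesicles the counts were 3 and 1, 1 and 1, 1 and 1, 1 and 0, 1 and 0, and 4 and 5, against 7.96% and 8.14% of all tested genes, and Ppp1r3c had 10 and 13 counts with EXOuniSTING and 0 in both EXOmock libraries.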

How the data were processed

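The measurements are gene counts in 12 libraries, used in the form the authors deposited. The submitters' processing notes name HISAT2 and GRCm39 for alignment. According to the file headers, featureCounts (Subread 2.0.1) counted read pairs that mapped to a single place, over exons summed by gene, with no strand option, on Ensembl release 103, and gives the exonic length of each gene, which was used for CPM per kb. Other upstream settings are not given in the sources used here. The members, the lists and the tests were chosen with earlier results of these data known.

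Symbols matched 52093 of 53647 identifiers. A single edgeR fit (4.0.16, R 4.3.3) took in all 12 libraries, with a mean for each group, TMM normalization, filterByExpr (14863 genes) and the quasi-likelihood F test; p-values had Benjamini-Hochberg adjustment, with calls below 0.05. Its common biological coefficient of variation was 3.05%. The procedure was run on simulated counts. These were drawn independently for each library with no effect of preparation, so the run does not cover such an effect in these data. Near-identical copies were found with blastn 2.17.0 at 95% identity over 200 bases among GENCODE M21 transcripts. Promoter windows come from RefSeq on GRCm38.p6, which is not the build of the counts. Values per library are given, per comparison, for the 8 members called at the lowest adjusted p among the higher and among the lower, those called with at least a 2-fold change and those called in all 3. Pathway genes outside the members are named if they belong to HIF or its hydroxylases and partners, or were called with at least a 2-fold change. Results were recomputed with DESeq2 1.42.0, its normalization in edgeR, an upper-quartile scaling, other filters, only the libraries compared, preparation as a block, the length trend removed, each preparation alone and each library left out; adding copy counts was chosen after seeing the data. Floors of 3 counts cover counting error only. Tables were made with Python 3.11.15.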

Additional observations from a re-analysis of the deposited data

Results flagged for a closer look

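The response to uniSTING mRNA differed at least 2-fold between the libraries labelled DC2.4 and those labelled 4T1 in 7 members, by an interaction contrast in the edgeR fit. The log2 difference was 3.99 for Adm (1.93 labelled DC2.4 and -2.07 labelled 4T1), 2.32 for Ankrd37 and 1.32 for P4ha2. It was 1.28 for Ndrg1 (0.96 labelled DC2.4 and -0.33 labelled 4T1), 1.12 for Bnip3, 1.80 for Eno2 and 1.17 for Aldoc. Adm and Ndrg1 were called in opposite directions. Epithelial markers summed to 5093 to 5299 CPM under the DC2.4 label and 0.238 to 5.45 CPM under the 4T1 label, and their part in these differences was not tested.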

How the results depend on the processing

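No called member changed direction under any alternative, and within each preparation alone the 29, 21 and 13 members called in the 3 treatment comparisons kept their sign. These members were called on the same 2 preparations, so agreement in sign largely follows from the call. Leaving out 1 library at a time gave 26 to 29 higher and 2 lower members in the DC2.4-labelled mRNA comparison, 11 to 13 higher and 5 to 8 lower in the 4T1-labelled one (5 without Mock replicate 2), and 5 to 7 higher and 5 lower with vesicles (5 higher without EXOmock replicate 1). For the difference between labels it gave 25 to 28 higher and 2 to 3 lower, for the 4T1-labelled response minus the vesicle response 9 to 10 higher and 8 to 11 lower, and for Mock libraries 14 higher and 20 to 21 lower. With a replicate block on preparation, 28 members were higher and 2 lower, 13 and 8, 7 and 5, 27 and 2, 10 and 11, and 14 and 21, in the order of the comparisons just given. Deviations of same-numbered libraries correlated at 0.45, 0.47 and 0.38 in the 3 treatment comparisons, and 13 genes were counted in all libraries of preparation 1 and in none of preparation 2; with 2 pairs per comparison and no label that ties a number to a culture or day, the numbers were not taken as pairs. Among responses, Egln3 was no longer different between labels in 11 settings and Pfkfb4 in 4. With TMM-scaled totals the glycolysis group summed to 16848 and 13012 CPM with uniSTING and Mock mRNA labelled DC2.4, 16924 and 14717 CPM labelled 4T1, and 9939 and 9699 CPM with EXOuniSTING and EXOmock; the other HIF targets summed to 1857 and 1149, 767 and 778, and 718 and 690 CPM in the same order. The median of the other HIF targets under the 4T1 label lay between -0.05 and 0.05 over all settings, on either side of 0. Counts were at or near the floor for Slc2a3 in all libraries and for Slc16a3 under the DC2.4 label. The same held for Ldhb and Car12 under the 4T1 label and with vesicles, and for Adm with vesicles.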
